A study of Mus musculus with 23 samples.

Results

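The genes described here are the 10 genes of the Dp16 duplication that act on RNA or on the folding and ubiquitylation of proteins, chosen by name: Son, Rbm11, Scaf4, Paxbp1, Btg3, Usp16, Usp25, Ttc3, Hspa13 and Cct8. All 10 had values, out of 19064 genes with values among the 21785 in the deposited table, and all 10 passed the filter on low values that left 13971 genes for testing. They are 10 of the 109 genes with values in the duplicated segment, which was read here as the stretch of chromosome 16 from Lipi to Zbtb21. Messenger RNA of mouse hippocampus was sequenced in 23 libraries, 7 labelled Dp16, 6 labelled Dp16/D-KO, 5 labelled Dp16;D-KO/K-KO and 5 labelled WT. Dp16 mice, Dp(16)1/Yey in the title of the series, carry 3 copies of this segment in place of 2 in every cell and serve as a model of Down syndrome. Dp16/D-KO mice carry the duplication and a Dyrk1a knock-out, and Dp16;D-KO/K-KO mice carry it with knock-outs of both Dyrk1a and Kcnj6. None of the 10 genes is itself targeted, so by their labels all 18 carrier libraries hold the same extra copy of each. The libraries carry labels of 2 kinds, called batches here. In batch 1, 10 libraries labelled total RNA, the animals were 2 to 3 months old on a C57BL/6 background, and in batch 2, 13 libraries labelled polyA RNA, the strain is given as >90% C57/B6 with no age. The labels do not say whether each library is 1 animal or a pool, so p-values measure only the spread between libraries.

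The 10 genes are grouped here as genes of RNA and transcription (Son, Rbm11, Scaf4, Paxbp1 and Btg3), of ubiquitin (Usp16, Usp25 and Ttc3) and of chaperones (Hspa13 and Cct8). Messenger RNA precursors are spliced by machinery that draws on SR proteins stored in nuclear speckles, then cleaved and polyadenylated at the end of the transcript, and later shortened at the poly(A) tail before decay. Proteins are folded by chaperones such as the HSP70 family and the ring-shaped chaperonin TRiC, tagged for degradation by ubiquitin ligases, and spared by deubiquitinases. Neurons, which do not divide, depend on this upkeep throughout life.

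Some facts of the series bear on the values below. Depth read from the steps between low RPKM values was 14650000 to 17250000 reads per library, and Rbm11, the lowest of the 10, then rested on about 100.1 to 273.2 reads per library, while Ttc3 rested on 3.097e+04 or more. Dyrk1a RPKM averaged 24.3 ± 1.48 in Dp16 (SD, n = 7), 24.3 ± 2.08 in the Dp16/D-KO group (n = 6), 24.7 ± 1.46 in Dp16;D-KO/K-KO (n = 5) and 16.9 ± 1.19 in WT (n = 5). Kcnj6 RPKM averaged 25.6 ± 1.67 in Dp16;D-KO/K-KO, 26.0 ± 1.52 in Dp16/D-KO, 26.9 ± 3.48 in Dp16 and 18.3 ± 1.87 in WT. Neither targeted gene was called lower than in Dp16 where a label names its knock-out, so the names of these groups are used here as labels only. Ddx3y, on the Y chromosome, stood at 12.65 RPKM in WT F1 against at most 0.03 in the other F libraries, and at 0.01 in WT M3 against at least 9.59 in the other M libraries. WT M3 also scored 0.151 on genes that differ between the batches, below the 0.588 to 1.19 of the other batch 2 libraries. The batch 1 libraries scored -0.078 to 0.570, highest in the Dp16;D-KO/K-KO libraries M1 (0.508) and M2 (0.570). The Dp16;D-KO/K-KO library M3, of batch 2, scored 0.588, so the M libraries of this group lay close together across the batches. Summed choroid plexus markers ran from 49.7 to 4400 RPKM over all carrier libraries and from 73.3 to 2857 RPKM over WT. The group medians differed widely, with 186 RPKM in Dp16, 144 in Dp16/D-KO, 2913 in Dp16;D-KO/K-KO and 1866.5 in WT. Their part in the changes below was not tested. In bulk tissue fewer cells of a type and less RNA per cell cannot be told apart.

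Promoters of 9 of the 10 genes were found in the RefSeq table of build GRCm38.p6, each 250 bases before to 50 after the start of transcription, and Hspa13 was not matched. Scaf4 and Btg3 have 2 promoters each in the table, and the first listed of each gene was used for the counts below, for members and for all genes. The median GC content of these 9 was 65.33%, with a median of 31 CpG dinucleotides, against 52.67% and 7 in all 27025 promoters of the table. Shown are those of Son and Rbm11, which had the largest changes in Dp16, of Ttc3 and Cct8, the most abundant of the 10, and of Usp16, which had the smallest change. Capitals mark, on either strand, the GC box GGGCGG, the CCAAT box CCAAT, the ETS core CCGGAAG, the NRF1 core GCGCATGC and the E box CACGTG.
Son (chr16:91647574-91647873, plus strand): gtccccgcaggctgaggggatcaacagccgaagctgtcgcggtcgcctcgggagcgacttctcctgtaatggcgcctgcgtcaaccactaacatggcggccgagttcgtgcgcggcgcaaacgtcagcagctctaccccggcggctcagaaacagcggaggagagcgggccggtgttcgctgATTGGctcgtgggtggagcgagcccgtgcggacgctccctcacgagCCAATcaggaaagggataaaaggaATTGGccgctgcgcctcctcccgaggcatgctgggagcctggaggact
Rbm11 (chr16:75592641-75592940, plus strand): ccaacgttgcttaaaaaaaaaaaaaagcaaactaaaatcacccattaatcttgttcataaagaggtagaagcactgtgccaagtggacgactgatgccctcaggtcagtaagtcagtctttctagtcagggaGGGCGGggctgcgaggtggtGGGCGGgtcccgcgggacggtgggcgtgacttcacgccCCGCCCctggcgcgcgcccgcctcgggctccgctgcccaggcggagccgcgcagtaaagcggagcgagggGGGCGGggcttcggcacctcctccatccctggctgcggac
Ttc3 (chr16:94370489-94370788, plus strand): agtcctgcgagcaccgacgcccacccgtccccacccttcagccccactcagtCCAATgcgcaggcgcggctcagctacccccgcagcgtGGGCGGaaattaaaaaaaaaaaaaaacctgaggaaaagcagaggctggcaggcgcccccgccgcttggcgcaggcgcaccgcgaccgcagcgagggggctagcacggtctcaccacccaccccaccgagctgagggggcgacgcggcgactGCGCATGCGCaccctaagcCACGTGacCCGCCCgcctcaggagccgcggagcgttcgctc
Cct8 (chr16:87495820-87496119, minus strand): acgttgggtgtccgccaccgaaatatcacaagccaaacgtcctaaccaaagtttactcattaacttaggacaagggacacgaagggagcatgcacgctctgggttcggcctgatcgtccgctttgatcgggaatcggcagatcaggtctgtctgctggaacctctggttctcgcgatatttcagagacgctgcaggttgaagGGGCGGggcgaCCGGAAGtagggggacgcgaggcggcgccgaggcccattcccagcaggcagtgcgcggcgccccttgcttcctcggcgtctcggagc
Usp16 (chr16:87454735-87455034, plus strand): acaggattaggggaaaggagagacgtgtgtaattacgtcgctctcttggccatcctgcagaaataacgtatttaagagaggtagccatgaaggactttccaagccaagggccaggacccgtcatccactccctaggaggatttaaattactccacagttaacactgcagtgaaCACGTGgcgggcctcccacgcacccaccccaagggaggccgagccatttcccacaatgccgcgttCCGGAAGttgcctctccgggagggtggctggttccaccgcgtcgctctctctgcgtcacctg
The GC box stood in 5 of the 9 promoters (Rbm11, Scaf4, Paxbp1, Ttc3 and Cct8) and in 35.9% of all promoters. The second promoter of Btg3, not counted here, also holds GC boxes and an ETS core. CCAAT stood in those of Son, Btg3 and Ttc3 and in 37.9% of all. The ETS core stood in the counted promoters of Usp16 and Cct8, neighbours on opposite strands, and stood in 9.12% of all promoters, and the NRF1 core was shared by Paxbp1 and Ttc3 and stood in 2.81% of all (a core and its reverse complement can overlap). The E box stood in Usp16 and Ttc3 and in 7.24% of all, and the TATA box TATAAA stood in none of the 9 and in 14.2% of all.

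All 10 genes were higher in Dp16 than in WT, the comparison that asks how their messenger RNA differs in the presence of the third copy. The changes ran from 0.41 for Usp16 to 0.81 for Rbm11 on the log2(RPKM + 0.1) scale, or from 1.33-fold to 1.75-fold, with a median of 0.56. Each passed limma's moderated test with Benjamini-Hochberg adjustment over the 13971 genes, with adjusted p from 8.96e-10 for Cct8 to 4.41e-05 for Usp16. Among all tested genes 0.852% were called higher and 0.594% lower in this comparison, and the median change of all genes was -0.01. The rest of the segment had 57 of 74 tested genes called higher and a median of 0.52, so the 10 genes lie within the range of their neighbours, from rank 5 (Rbm11) to rank 69 (Usp16) of 84 segment genes by size of change. The same 10 genes were higher than in WT in Dp16/D-KO (0.852% of all genes called higher, 0.429% lower) and in Dp16;D-KO/K-KO (0.601% higher, 0.15% lower), with medians of 0.55 and 0.50. These 3 comparisons share the 5 WT libraries and are not independent of each other. Without the WT libraries F1 and M3 all 10 stayed called in each, with medians of 0.57, 0.54 and 0.52.

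**Figure D1:**
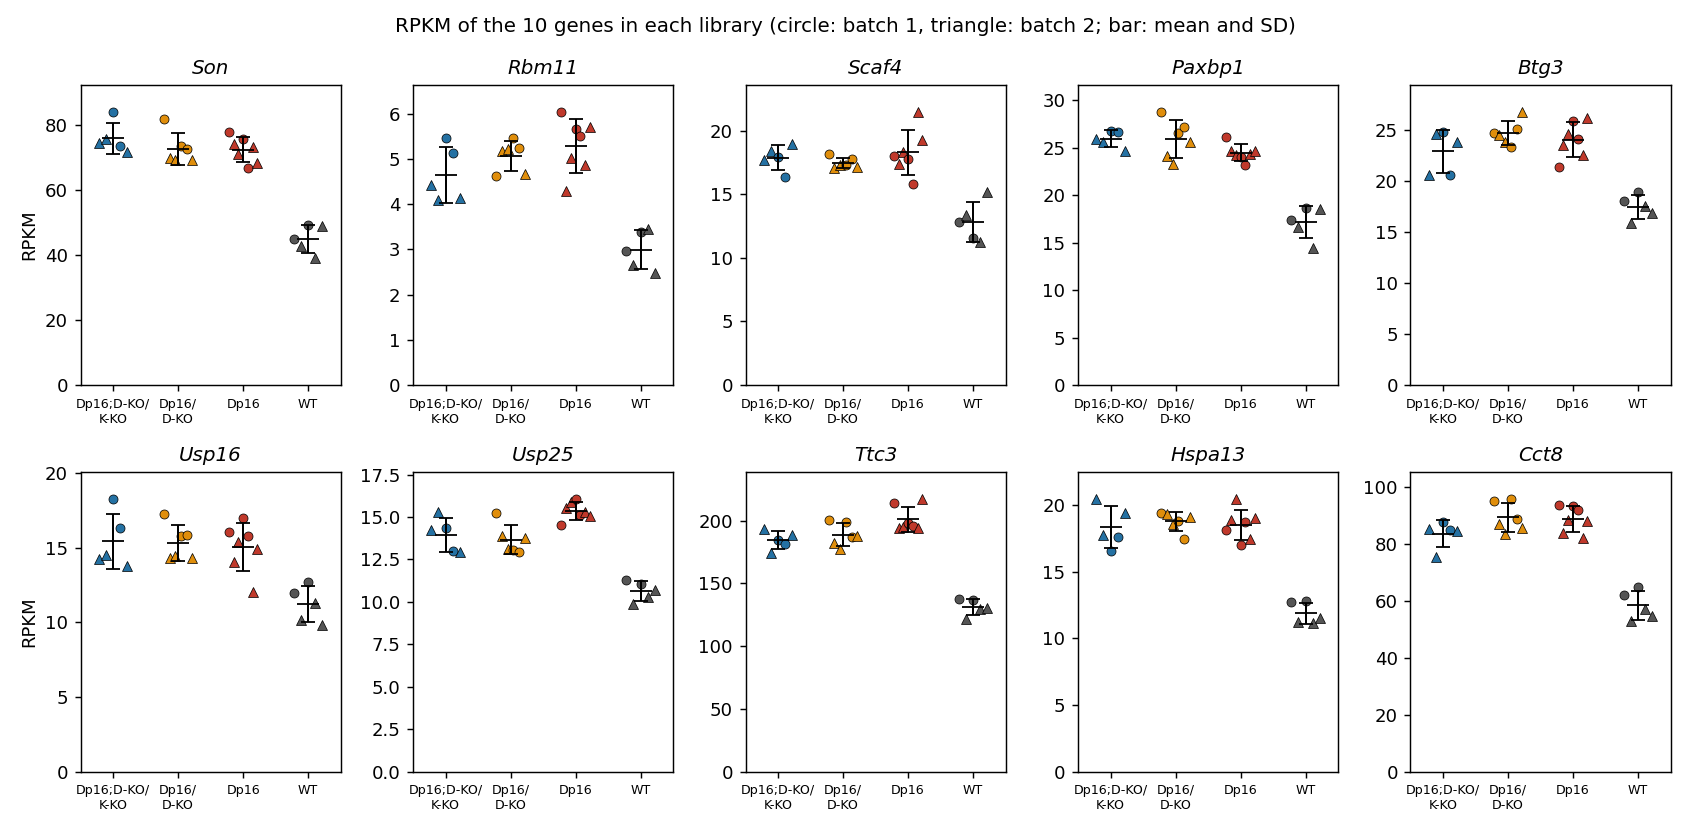
RPKM of the 10 genes in each of the 23 libraries, by genotype on the horizontal axis, with a linear vertical axis from 0; points are libraries (circles batch 1, triangles batch 2) and bars the mean and SD. In every panel the carrier groups lie above WT, and Usp16 is the one gene with a Dp16 library (12.06 RPKM) under the highest WT library (12.73 RPKM).

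A copy number of 3 against 2 corresponds to a log2 change of 0.58. In Dp16 the 95% interval of 7 genes held this value, that of Rbm11 lay above it (0.64 to 0.97) and those of Btg3 (0.34 to 0.58, just under the line) and Usp16 (0.30 to 0.53) lay below it. In Dp16/D-KO 8 intervals held it and those of Usp16 and Usp25 lay below. In Dp16;D-KO/K-KO 5 held it, that of Son lay above and those of Btg3, Usp16, Usp25 and Ttc3 (0.40 to 0.58, just under it) lay below. Usp16 was thus the one gene below the line in all 3 comparisons with WT. The intervals are per gene and not adjusted for the number of genes, and the pseudocount of 0.1 understates the change of a low gene such as Rbm11 slightly.

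**Figure D2:**
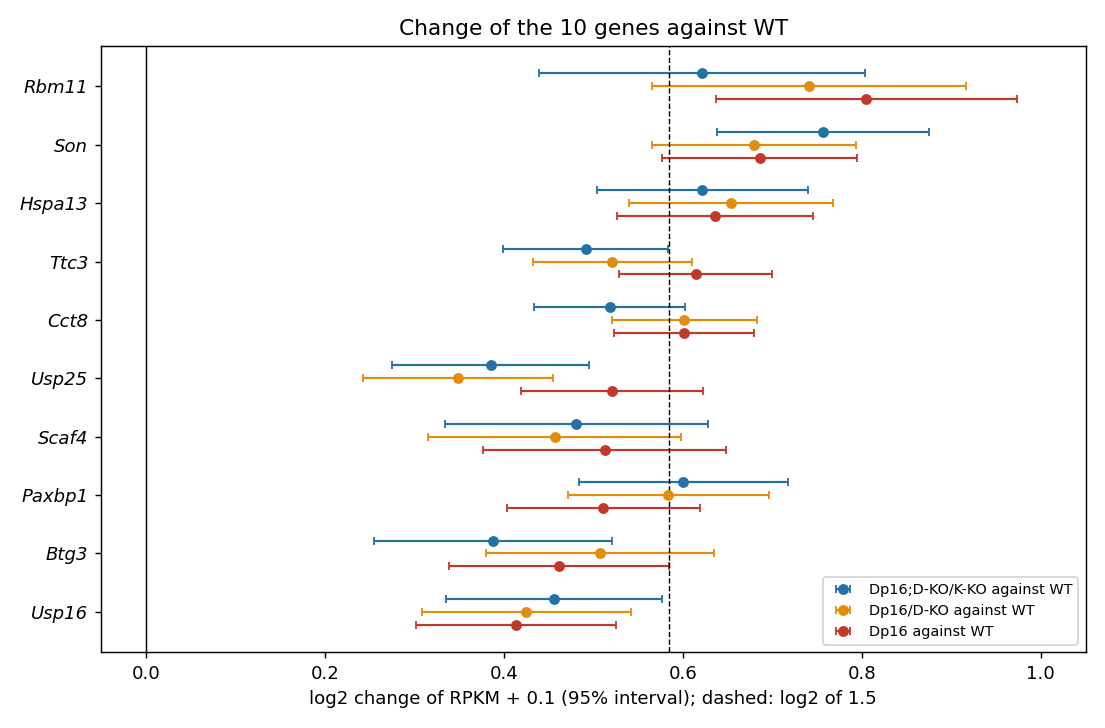
Log2 change of RPKM + 0.1 against WT on the horizontal axis for each of the 10 genes, ordered by their change in Dp16, with 95% intervals from limma. The solid line marks no change and the dashed line a ratio of 1.5; all 30 intervals lie right of the solid line, and the intervals of Usp16 lie left of the dashed line.

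Among the genes that act on RNA, Son encodes a large speckle protein on which, in human cells, the splicing of introns with weak splice sites depends. The gene spans 91647824 to 91679195 on the plus strand of chromosome 16 (mm10 positions, as the deposited table gives them here and for every gene below). Son RPKM ran from 66.71 to 77.69 in Dp16 with a median of 73.14, and from 69.09 to 81.67 in Dp16/D-KO with a median of 71.1. It was 74.55, 75.74, 83.88, 73.52 and 71.5 in Dp16;D-KO/K-KO, against 44.89, 42.69, 49.35, 38.93 and 48.89 in WT. Every carrier library stood above every WT library, and the carrier groups overlapped one another. Son was higher than in WT by 0.69 ± 0.05 (SE, adjusted p = 2.28e-08) in Dp16, by 0.68 in Dp16/D-KO and by 0.76 in Dp16;D-KO/K-KO, and its own interval in the last of these (0.64 to 0.87) was the one above the 3-to-2 line there. Donson lies on the opposite strand and, in GENCODE vM21, the source of every count of shared exon bases below, shares 103 bases of exon with Son, 0.691% of the exon bases of Son.

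Rbm11 encodes an RNA-binding splicing regulator found mainly in brain and testis, and it lies at 75592844 to 75602825 on the plus strand. Its RPKM ran from 4.29 to 6.03 in Dp16 with a median of 5.5, and from 4.63 to 5.45 in Dp16/D-KO with a median of 5.19. The values were 4.42, 4.08, 5.47, 5.13 and 4.13 in Dp16;D-KO/K-KO, against 2.97, 2.65, 3.39, 3.45 and 2.48 in WT. All carrier libraries were above all WT libraries, and the lowest carriers were the Dp16;D-KO/K-KO libraries F2 and M3, both of batch 2. The change against WT was 0.81 ± 0.08 in Dp16 (SE, limma, adjusted p = 1.08e-06), 0.74 in Dp16/D-KO and 0.62 in Dp16;D-KO/K-KO. Rbm11 was the least abundant of the 10, with a coefficient of variation of 6.66% to 14.5% within groups. Its counting error alone is about 6.88% at the median depth.

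Scaf4 and Paxbp1 changed by near-equal amounts in Dp16. Scaf4 (90222837 to 90290637, minus strand) encodes a protein that binds the tail of RNA polymerase II and, in human cells, keeps transcripts from ending early together with its paralogue SCAF8. Its RPKM ran from 15.76 to 21.44 in Dp16 with a median of 18.01, and from 17.03 to 18.15 in Dp16/D-KO with a median of 17.3. It was 17.68, 18.42, 17.9, 16.37 and 18.98 in Dp16;D-KO/K-KO, against 12.83, 13.35, 11.57, 11.25 and 15.15 in WT. The groups did not overlap but came close, with 15.76 RPKM in the lowest Dp16 library, M2, and 15.15 RPKM in the highest WT library, M4. Scaf4 was higher than in WT by 0.51 in Dp16, 0.46 in Dp16/D-KO and 0.48 in Dp16;D-KO/K-KO. Sod1, on the other strand, overlaps the deposited span of Scaf4 by 3488 bases but shares no exon base with it in GENCODE vM21.

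Paxbp1 (91014037 to 91044610, minus strand) encodes a nuclear protein that in mouse muscle precursors links the factors PAX3 and PAX7 to a histone methyltransferase. RPKM of Paxbp1 ran from 23.2 to 26.16 in Dp16 with a median of 24.32, and from 23.29 to 28.75 in Dp16/D-KO with a median of 26.1. It was 25.98, 25.66, 26.82, 26.69 and 24.68 in Dp16;D-KO/K-KO, against 17.4, 16.66, 18.65, 14.48 and 18.56 in WT. Carriers and WT stood well apart, with no carrier library under 23.2 and no WT library over 18.65. The change against WT was 0.51 in Dp16, 0.58 in Dp16/D-KO and 0.60 in Dp16;D-KO/K-KO.

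Btg3 (78359860 to 78377181, minus strand) belongs to the BTG/TOB family of proteins, which slow cell division and bring the CCR4-NOT deadenylase to messenger RNAs. Its RPKM ran from 21.39 to 26.22 in Dp16 with a median of 24.12, and from 23.36 to 26.74 in Dp16/D-KO with a median of 24.6. In Dp16;D-KO/K-KO it was 20.56, 24.64, 24.84, 20.63 and 23.81, against 18.05, 15.87, 18.93, 17.5 and 16.86 in WT. The groups did not overlap with WT, though 2 of the Dp16;D-KO/K-KO libraries were the lowest carriers. Btg3 was higher than in WT by 0.46 ± 0.06 in Dp16 (SE, limma, adjusted p = 3.49e-05), 0.51 in Dp16/D-KO and 0.39 in Dp16;D-KO/K-KO (adjusted p = 0.00119). In batch 1 alone, with 2 WT libraries, its changes of 0.34, 0.38 and 0.25 missed the threshold, and with Dp16;D-KO/K-KO and WT alone in the fit the adjusted p was 0.0924. Cxadr, on the other strand, does not overlap the deposited span of Btg3, but a longer Btg3 transcript in GENCODE vM21 runs into Cxadr, and there 695 exon bases are common to both, 17.3% of those of Btg3.

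Of the ubiquitin genes, Usp16 encodes the deubiquitinase that takes ubiquitin off histone H2A, the mark that Polycomb repressive complex 1 places. It lies at 87454615 to 87484857 on the plus strand. Usp16 RPKM ran from 12.06 to 17.01 in Dp16 with a median of 15.41, and from 14.28 to 17.26 in Dp16/D-KO with a median of 15.1. It was 14.24, 14.52, 18.26, 16.3 and 13.8 in Dp16;D-KO/K-KO, against 11.95, 10.17, 12.73, 11.33 and 9.84 in WT. The Dp16 library M3 (12.06) lay under the WT library M2 (12.73), the single overlap between carriers and WT among the 10 genes. In all 9 other genes every Dp16 library was above every WT library, as it was for 0.53% of all tested genes, and in Dp16/D-KO (0.795% of all genes) and Dp16;D-KO/K-KO (0.673%) this held for all 10. Those 2 libraries are of different batches, and within each batch Usp16 did not overlap between Dp16 and WT. With 2 WT libraries in batch 1 and 3 in batch 2, groups separate easily. The share of all genes that separate within a batch was not computed. Usp16 was higher than in WT by 0.41 in Dp16, 0.43 in Dp16/D-KO and 0.46 in Dp16;D-KO/K-KO. It was also lower in batch 2 than in batch 1, by a log2 change of -0.23 ± 0.04 (SE, limma, adjusted p = 8.27e-05), as were Cct8 (-0.13), Rbm11 (-0.16), Son (-0.10) and Paxbp1 (-0.09), against 33.4% of all genes called lower in batch 2. Within a single batch the change of Usp16 missed the threshold each time in batch 1 and in batch 2, with values of 0.40 and 0.42 in Dp16 (adjusted p = 0.119 and 0.0515).

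Usp25 (77013683 to 77116783, plus strand) encodes a deubiquitinase that in human cells counters the degradation of proteins from the endoplasmic reticulum. Its RPKM ran from 14.53 to 16.06 in Dp16 with a median of 15.27. In Dp16/D-KO it ran from 12.94 to 15.25 with a median of 13.4, and in Dp16;D-KO/K-KO it was 14.21, 15.29, 14.33, 13.02 and 12.93, against 11.31, 9.87, 11.08, 10.27 and 10.73 in WT. All carriers were above WT, but 5 of the 6 Dp16/D-KO libraries and 4 of the 5 Dp16;D-KO/K-KO libraries were below the lowest Dp16 library. The share of all genes that separate carrier groups to this degree was not computed. The change against WT was 0.52 ± 0.05 in Dp16 (SE, limma, adjusted p = 3.66e-07), 0.35 in Dp16/D-KO and 0.39 in Dp16;D-KO/K-KO. Usp25 was the member nearest to a call between carrier groups: its change in Dp16/D-KO against Dp16 was -0.17 (95% interval -0.27 to -0.08, adjusted p = 0.112 by limma with Benjamini-Hochberg adjustment), with values of -0.15 in batch 1 and -0.19 in batch 2. In the authors' deposited table the same change is -0.19 on the log2 scale with an adjusted p of 0.0153, the one call among the 10 genes there between carrier groups. Of 16071 genes, 20 are called higher and 55 lower there in that comparison. In Dp16;D-KO/K-KO against Dp16 the change of Usp25 by limma was -0.14 (-0.24 to -0.03, adjusted p = 0.295). Summed markers of oligodendrocytes and myelin, 8 of 8 with values, ran from 1212 to 2590 RPKM in Dp16/D-KO with a median of 2055, against 2146 to 3174 RPKM in Dp16 with a median of 2886. In Dp16;D-KO/K-KO they ran from 2281 to 3115 RPKM with a median of 2525, and their part in the change of Usp25 was not tested.

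Ttc3 (94370620 to 94469222, plus strand) encodes a ubiquitin ligase that in human cells acts on phosphorylated AKT kinases. It was the most abundant of the 10, above 97.7% of all genes with values in WT. Its RPKM ran from 194.2 to 217.21 in Dp16 with a median of 195.57, and from 177.42 to 200.53 in Dp16/D-KO with a median of 187.2. It was 193.12, 173.83, 184.86, 181.49 and 188.83 in Dp16;D-KO/K-KO, against 137.6, 121.31, 136.91, 129.85 and 130.33 in WT. Carriers and WT were far apart, and all 5 Dp16;D-KO/K-KO libraries and 4 of the 6 Dp16/D-KO libraries were below the lowest Dp16 library. How often other genes separate carrier groups in this way was not computed, so these counts are a description only. Ttc3 was higher than in WT by 0.61 ± 0.04 in Dp16 (SE, limma, adjusted p = 2.23e-09), 0.52 in Dp16/D-KO and 0.49 in Dp16;D-KO/K-KO. Against Dp16 the difference was -0.09 in Dp16/D-KO (-0.17 to -0.01, adjusted p = 0.271) and -0.12 in Dp16;D-KO/K-KO (-0.21 to -0.04, adjusted p = 0.277), neither past the threshold. Pigp on the other strand shares 326 bases of exon with Ttc3, 2.01% of its exon bases.

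**Figure D3:**
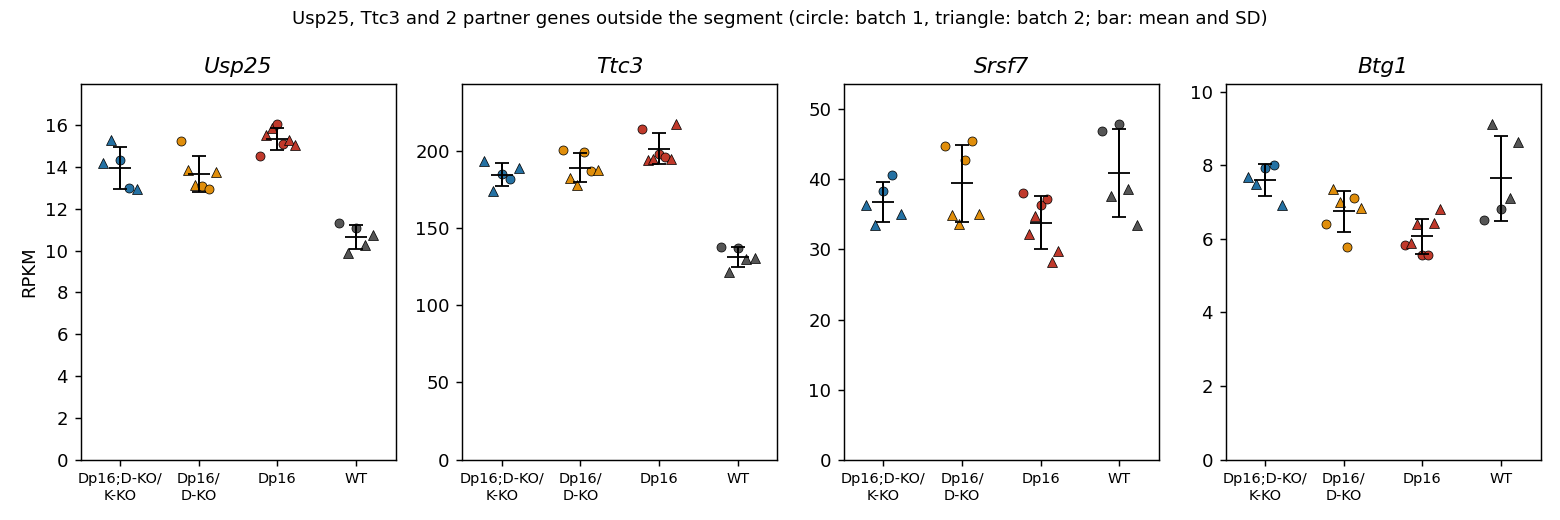
RPKM of Usp25 and Ttc3 and of Srsf7 and Btg1, which lie outside the segment, in each library by genotype on linear axes from 0; bars give mean and SD, circles batch 1 and triangles batch 2. Usp25 averaged 13.7 RPKM in Dp16/D-KO and 15.3 RPKM in Dp16, and Srsf7 averaged 33.8 RPKM in Dp16 and 40.9 RPKM in WT.

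Of the chaperone genes, Hspa13 (75755190 to 75767277, minus strand) encodes an HSP70 relative of the endoplasmic reticulum that has the ATPase domain but lacks the usual peptide-binding domain. RPKM of Hspa13 ran from 17 to 20.41 in Dp16 with a median of 18.73, and from 17.46 to 19.41 in Dp16/D-KO with a median of 19.0. It was 20.45, 17.76, 16.58, 17.59 and 19.37 in Dp16;D-KO/K-KO, against 12.72, 11.24, 12.78, 11.14 and 11.5 in WT. The lowest carrier library was 16.58 and the highest WT library 12.78. Hspa13 was higher than in WT by 0.64 ± 0.05 in Dp16 (SE, limma, adjusted p = 5.62e-08), 0.65 in Dp16/D-KO and 0.62 in Dp16;D-KO/K-KO. It had the largest difference of effect between batches, 0.73 in batch 2 and 0.49 in batch 1, a difference of 0.24 with an adjusted p of 0.822 by limma. None of the 10 genes passed the test of an interaction of Dp16 against WT with batch or with sex letter, and 0% of all genes did for either, so effects were not shown to differ. At an unadjusted p under 0.05 only Hspa13 with batch was found among the 20 interactions of the 10 genes. Chance alone gives about that many, and the share of all genes at that p is not given here.

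Cct8 encodes a subunit of TRiC, the chaperonin that folds actin and tubulin among other proteins and that is built from 8 different subunits, each from its own gene. It lies at 87483325 to 87495869 on the minus strand and is the one subunit gene in the segment. Cct8 RPKM ran from 81.98 to 93.6 in Dp16 with a median of 88.32, and from 83.48 to 95.72 in Dp16/D-KO with a median of 87.9. It was 85.25, 75.35, 87.68, 84.77 and 84.37 in Dp16;D-KO/K-KO, against 62.18, 53.01, 64.67, 57.18 and 54.68 in WT. Every carrier library was above every WT library. The change against WT was 0.60 ± 0.04 in Dp16 (SE, limma, adjusted p = 8.96e-10), 0.60 in Dp16/D-KO and 0.52 in Dp16;D-KO/K-KO. Usp16 and Cct8 lie end to end on opposite strands, and 192 bases of exon are common to both, 6.22% of those of Cct8 and 2.03% of those of Usp16. The strand setting of the counting is not given by any source used, so reads from these shared bases, and from those that Son shares with Donson and Ttc3 with Pigp, cannot be told apart. The same would hold for Btg3 and Cxadr if the longer Btg3 transcript was counted, which no source used says.

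None of the other 7 TRiC subunit genes was called in Dp16 against WT. Tcp1 averaged 68.2 ± 4.53 RPKM in Dp16 and 68.8 ± 2.69 in WT, Cct2 64.4 ± 2.32 and 63.4 ± 3.03, Cct5 76.1 ± 3.10 and 76.8 ± 5.32, and Cct7 56.0 ± 4.01 and 56.2 ± 4.54 (SD, n = 7 Dp16 and 5 WT). Cct3 had the largest change of the 7, -0.09 (95% interval -0.20 to 0.01, adjusted p = 0.434 by limma), and the values of Cct4 and Cct6a were 0.03 each. The level of Cct8 relative to the mean of the other 7 subunits was 1.46 to 1.63 in Dp16, 1.40 to 1.59 in Dp16/D-KO and 1.34 to 1.5 in Dp16;D-KO/K-KO, against 0.906 to 1.07 in WT. Cct8 thus stood at the middle of the complex in WT and above it in every carrier library. The log2 ratio was higher than in WT by 0.61 in Dp16, 0.58 in Dp16/D-KO and 0.53 in Dp16;D-KO/K-KO, with two-sided exact permutation p of 0.00253, 0.00433 and 0.00794, each the smallest the design allows, and adjusted p of 0.00649, 0.00649 and 0.00794 over the 3 comparisons. Within batch 1 the differences were 0.59, 0.57 and 0.48 and within batch 2 they were 0.62, 0.56 and 0.57, where so few libraries cannot reach p under 0.05 after adjustment.

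**Figure D4:**
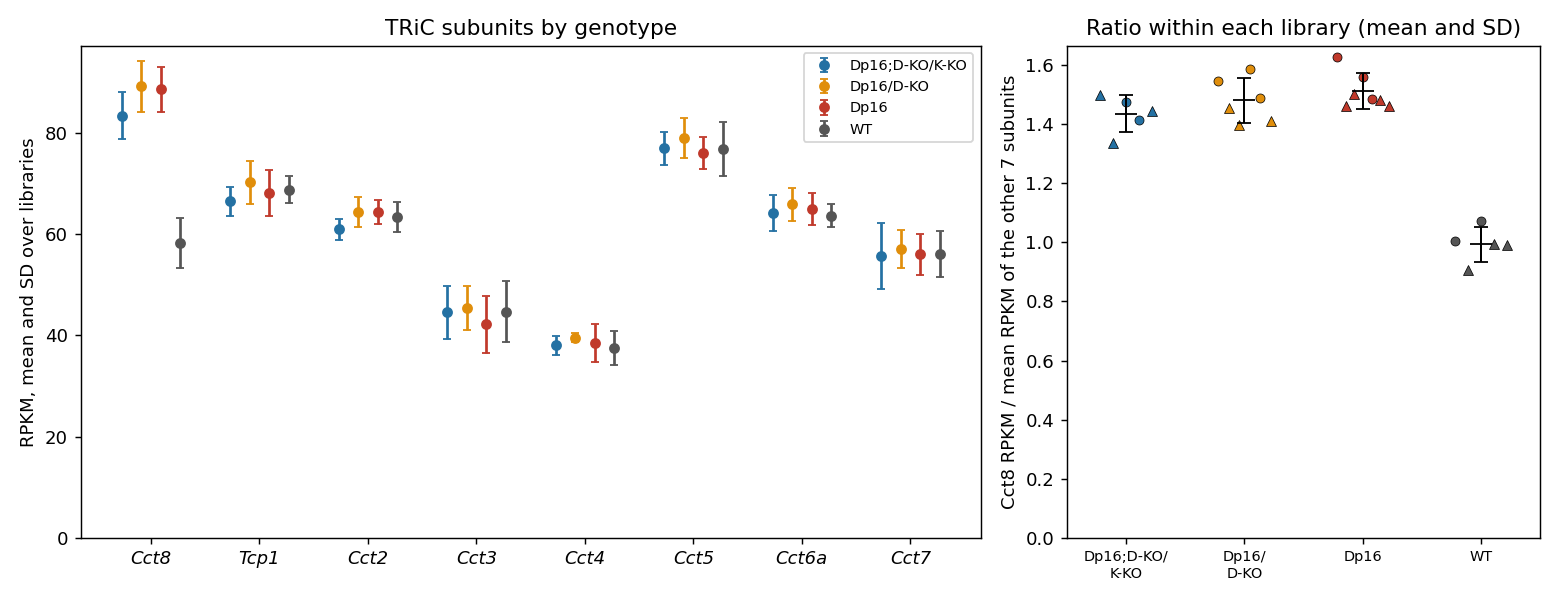
Left, RPKM (mean and SD) of the 8 TRiC subunit genes by genotype. Right, RPKM of Cct8 divided by the mean RPKM of the other 7 subunits in each library, with mean and SD; both axes are linear from 0, and the ratio was at least 1.34 in carriers and at most 1.07 in WT.

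No member was called in any of the 3 comparisons among carriers. In Dp16/D-KO against Dp16 0.0644% of all genes were called higher and 0.0787% lower, in Dp16;D-KO/K-KO against Dp16 0.0358% higher and 0% lower, and in Dp16;D-KO/K-KO against Dp16/D-KO 0% in either direction. At an unadjusted p under 0.05 there were 2119 of all 13971 tested genes in the first comparison, among them 2 of the 10 members (Usp25 and Ttc3). In the second there were 1573 of all genes and 4 members (Usp25, Ttc3, Rbm11 and Cct8), and in the third 1260 and 1 member (Cct8). The authors' deposited table calls 1 member, 0 and 0 there. Of all genes it calls 20 higher and 55 lower of 16071 in the first, 17 and 27 of 15707 in the second, and 51 and 2 of 17159 in the third. In the limma fit the member changes ran from -0.17 to 0.07 in the first, from -0.18 to 0.09 in the second and from -0.12 to 0.08 in the third. The largest in the second was Rbm11 (-0.18, 95% interval -0.35 to -0.01, adjusted p = 0.401). The lowest bound of any of these 30 intervals was that of Rbm11 in the second comparison, so none reached a full loss of the extra copy, which would be the inverse of the 3-to-2 line.

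By level, the order in WT was Ttc3, Cct8, Son, Btg3, Paxbp1, Scaf4, Hspa13, Usp16, Usp25 and Rbm11, in RPKM, which is per length. Ttc3, Cct8, Son and Rbm11 were set apart from their neighbours in that order, since their WT libraries did not overlap, while Btg3 to Usp25 formed a run in which each gene overlapped the next. The mean RPKM in WT was 131 for Ttc3, 58.3 for Cct8, 45.0 for Son, 17.4 for Btg3 and 2.99 for Rbm11. By the highest value in any group, Ttc3 varied least, with a coefficient of variation of 3.99% to 5.03% within groups.

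Over the 23 libraries, the tested gene whose log2 RPKM followed each member most closely was usually another segment gene. For Cct8 it was Dyrk1a (Pearson r = 0.96), for Hspa13 Nrip1 (0.96), for Usp16 Brwd1 (0.94), for Paxbp1 Ifnar1 (0.93), for Scaf4 Zbtb21 (0.92), for Rbm11 Cryzl1 (0.91) and for Btg3 N6amt1 (0.87). For Son, Ttc3 and Usp25 it was the gene listed as a (nonagouti), outside the segment, with r of 0.94, 0.95 and 0.90. Of the 20 closest genes of each member, with the members left out, 18 to 20 lay in the segment. The libraries share the split into carriers and WT, so these values mainly describe that split: over the 18 carrier libraries the r of the same pairs was 0.68 for Cct8, 0.74 for Hspa13, 0.81 for Usp16, 0.44 for Paxbp1, 0.34 for Scaf4, 0.61 for Rbm11, 0.39 for Btg3, 0.17 for Son, 0.42 for Ttc3 and 0.40 for Usp25.

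Lists of partner genes outside the segment held 5 called genes in Dp16 against WT, all lower. Of the SR proteins and speckle genes, the setting in which Son and Rbm11 act, 26 were tested in Dp16 against WT. Of these, 0 were called higher and 3 lower, beside 0.852% higher and 0.594% lower of all tested genes. The 3 were Srsf7 and Srsf1, which are SR splicing factors, and Clk4, a kinase of SR proteins. The list had a median of -0.08 against -0.01 for all genes, and 25 of the 26 had a negative value, against 54.6% of all tested genes. Negative values made up 78.3% of 3' end formation, 77.8% of CCR4-NOT and BTG/TOB, 69.6% of PRC1 and 64.7% of endoplasmic reticulum degradation genes. They made up 60% of nearest paralogues, 56.1% of USP, 47.8% of HSP70, 46.7% of TRiC and prefoldin, 33.3% of SON-dependent and 0% of Akt genes. The SR and speckle count of 25 was 24 with libraries rescaled by their median ratio, 22 in batch 1 alone, 20 in batch 2 alone and 21 without WT F2. Srsf7 RPKM ran from 28.15 to 38.03 in Dp16 with a median of 34.72, against 46.95, 37.56, 47.89, 38.59 and 33.49 in WT. These groups overlapped, with the higher values in batch 1 in both. Srsf7 changed by -0.28 ± 0.05 (SE, limma, adjusted p = 0.00155), Clk4 by -0.22 (adjusted p = 0.0177) and Srsf1 by -0.15 (adjusted p = 0.0224). The value of Srsf7 was -0.24 in batch 2 alone (adjusted p = 0.269), and with no batch term none of the 3 was called. With no sex letter term Clk4 lost its call (adjusted p = 0.121 by limma). Without the WT library F2 the call of Clk4 was lost (adjusted p = 0.0588), that of Srsf1 was lost without WT F1 or M3 or Dp16 M1 or M3 (adjusted p up to 0.0541), and without WT M2 the list had 5 calls. Without both WT F1 and M3 the adjusted p of Srsf1 was 0.124. Against WT, 0 of the 26 were called in either direction in Dp16/D-KO (median -0.04), and 0 in Dp16;D-KO/K-KO (median -0.05). In each of these, 80.8% of the list had a negative value, against 53.1% and 48.6% of all tested genes. None of the list was called against Dp16 either, so the groups were not shown to differ. Dentate granule neuron markers, 7 of 7 with values, summed to 97.5 to 116 RPKM in Dp16 and 116 to 126 RPKM in WT. They summed to 104 to 132 RPKM in Dp16/D-KO and 102 to 118 RPKM in Dp16;D-KO/K-KO, and their part in the changes of the list was not tested.

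Of the CCR4-NOT and BTG/TOB genes, the partners and relatives of Btg3, 18 were tested in Dp16. Of these, 2 were called, both lower, beside 0.594% of all tested genes called lower. The list median was -0.08. With no batch term, in batch 1 alone and in batch 2 alone 0 were called, and with the replicate block 1 was. Pan2, a subunit of another poly(A) nuclease, ran from 4.01 to 6.57 RPKM in Dp16, against 7.78, 6.04, 7.7, 6.38 and 5.39 in WT. Pan2 changed by -0.36 (adjusted p = 0.00515 by limma) and Btg1, a paralogue of Btg3 with 6.07 ± 0.479 RPKM in Dp16 (SD, n = 7) and 7.64 ± 1.16 in WT (n = 5), by -0.31 (adjusted p = 0.0286). The Dp16 and WT libraries overlapped for both. The call of Btg1 was lost in 5 of the 12 fits that left out 1 library (WT F2 or M4, or Dp16 F2, M1 or M2), and the list then had 1 call. Without the WT libraries F1 and M3 the adjusted p of Pan2 was 0.0654. None of the list was called in the other comparisons with WT. The value of Btg2, another paralogue, was -0.37 and missed the threshold (adjusted p = 0.217).

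The other lists had no call in any of the 3 comparisons with WT. In Dp16 these were 15 genes of TRiC and prefoldin (median 0.00), 23 of the HSP70 family and its co-chaperones (0.01), 41 of 42 USP deubiquitinases (-0.03), 23 of 3' end formation (-0.06), 23 of PRC1 and H2A ubiquitin (-0.04), 17 of degradation from the endoplasmic reticulum (-0.04), 6 of 7 genes whose splicing depends on SON in human cells (0.04) and 3 Akt kinases (0.06). None of the genes with the smallest p in each list passed the test. Cpsf1, a subunit of the cleavage factor that reads the poly(A) signal, came nearest with a value of -0.24 (adjusted p = 0.102 by limma with Benjamini-Hochberg adjustment), beside Cpsf7 with -0.12 in the same list. Among the deubiquitinases Usp28 and Usp37 had values of -0.16 and -0.17, and among the Polycomb genes Cbx2 and Bmi1 had -0.36 and -0.14. The log2 values were -0.14 for Ube2g2 and -0.11 for Edem2 in degradation from the endoplasmic reticulum, -0.08 for Hspa12a and 0.18 for Bag3 among the HSP70 genes, and -0.06 for Pdcl beside Cct3 in the chaperonin list. Pcnt, a target of SON in human cells, had -0.15, and the kinases Akt1 and Akt2 had 0.06 and 0.08. Of the nearest paralogues of the members (Rbm7, Btg1, Btg2, Tob1, Tob2, Usp45, Usp28, Dzip3, Scaf8 and Gcfc2) Btg1 alone was called, and Scaf8, the paralogue of Scaf4, had a value of 0.08 (95% interval -0.0045 to 0.16, adjusted p = 0.391).

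**Figure D5:**
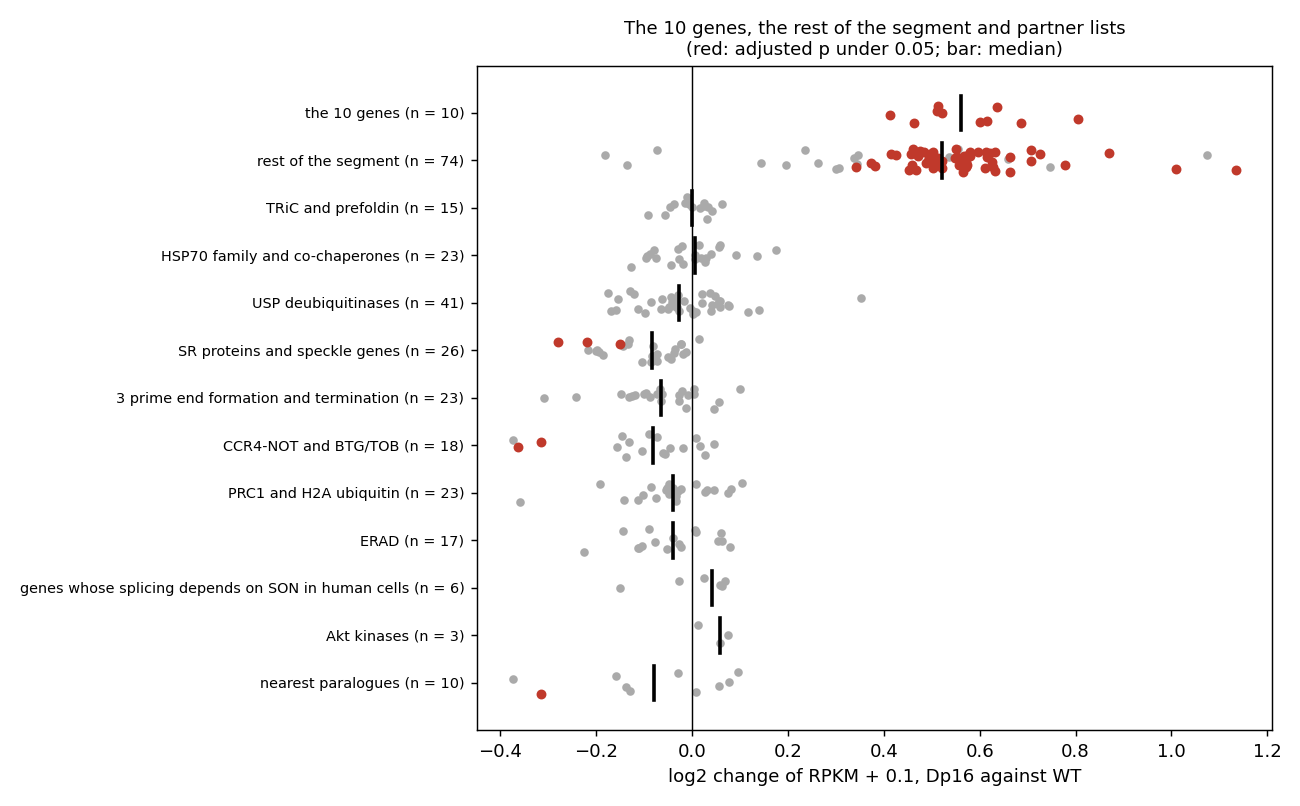
Log2 change of RPKM + 0.1 in Dp16 against WT for each tested gene (points; red where the adjusted p is under 0.05) and the median (bar) of the 10 genes, the rest of the segment and the partner lists. The 10 genes lie between 0.41 and 0.81 and the partner lists lie around 0, with 5 called genes, all lower, in 2 of the lists, Btg1 appearing again among the nearest paralogues.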

How the data were processed

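The deposited table gives each gene an RPKM value in each library (reads scaled to transcript length and to library size), which the authors computed and deposited with 2 decimals, beside the authors' own log2 fold changes, p-values and adjusted p-values, whose test no source used here names. HISAT and the mouse build mm10 are named in the submitters' processing notes. How reads were counted, and whether by strand, is not given by any source used.

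RPKM was put on the log2(RPKM + 0.1) scale, and genes with a mean of at least 0.5 were tested with limma 3.58.1 in R 4.3.3 (trend, 4 groups in 1 fit, batch and sex letter as covariates, two-sided, Benjamini-Hochberg over 13971 genes, called under 0.05). The ratio of Cct8 to other TRiC subunits was tested by exact permutation in SciPy 1.17.1. Scripts were tested on simulated data. Depth was taken as the value that best fitted the RPKM steps, where 47.8% to 56.4% of low values came within 0.15 of a whole read. Chance gives 30% at a depth fixed beforehand, so the excess over it is overstated here. Depth is therefore an estimate and counting error is approximate. Promoters came from RefSeq. The members and lists were chosen with earlier results of these data known, among them the promoters shown. Genes named are the members, their paralogues, the TRiC subunits, Dyrk1a and Kcnj6, called genes of each list with the 2 of smallest p, and the gene outside the members most like each member. Alternatives covered the pseudocount, filter, scaling, covariates, replicate block, each batch, and leaving out libraries. Those run on the partner lists were added after seeing the data.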

Additional observations from a re-analysis of the deposited data

Results flagged for a closer look

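Of the 40 sets of values formed by the 10 genes in the 4 genotypes, 2 held a library set apart from the rest of its group, where chance alone flags about 1 in 20. Son in the Dp16/D-KO library F1 had 81.67 RPKM, above the 69.09 to 73.37 of the other Dp16/D-KO libraries. Cct8 in the Dp16;D-KO/K-KO library F2 had 75.35 RPKM, below the 84.37 to 87.68 of the other Dp16;D-KO/K-KO libraries. Without these libraries every call of the 2 genes against WT stayed.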

How the results depend on the processing

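Against WT, 10 of 10 members were called in each comparison with a pseudocount of 0.01 or 1, no filter or a mean RPKM of at least 2, rescaled libraries, batch or sex letter alone, robust empirical Bayes, a replicate block (medians 0.56, 0.57 and 0.52), each library left out, and without the WT libraries F1 and M3. With only the groups compared in the fit, Btg3 in Dp16;D-KO/K-KO lost its call. In batch 1 alone, with 2 WT libraries, 7 members were called in Dp16, 7 in Dp16/D-KO and 5 in Dp16;D-KO/K-KO, and in batch 2 alone 9, 8 and 7. The difference of the Cct8 ratio was 0.59, 0.57 and 0.48 in batch 1 alone (adjusted exact p = 0.3, 0.3 and 0.333) and 0.62, 0.56 and 0.57 in batch 2 alone (0.1 each), where no smaller p is possible for so few libraries. Counts of called partner genes in Dp16 depended on the setting: for the SR and speckle list 0 with no batch term, 2 with no sex letter term, 1 in batch 1 alone, 0 in batch 2 alone, 2 with the replicate block and 2 to 5 with 1 library left out. For CCR4-NOT and BTG/TOB they were 0 with no batch term, 2 with no sex letter term, 0 in batch 1 alone, 0 in batch 2 alone, 1 with the replicate block, 1 without the WT libraries F1 and M3 and 1 to 2 with 1 library left out. Replicate labels were not taken to pair samples, since deviations of same-label libraries correlated by 0.254 on average over 26 pairs and those of other labels by 0.254, so a call lost under the block is not read as a weaker effect. Over all genes the replicate block gave 199 calls in Dp16 against WT (202 without it), 148 in Dp16/D-KO against WT (179), 75 in Dp16;D-KO/K-KO against WT (105), 0 in Dp16/D-KO against Dp16 (20), 4 in Dp16;D-KO/K-KO against Dp16 (5) and 0 in the comparison of Dp16;D-KO/K-KO with Dp16/D-KO (0). Apart from the fewer libraries of the batches, the cause was not tested.

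Among carriers, where no member was called, small changes turned sign. In Dp16/D-KO against Dp16, Cct8 was -0.0070 with rescaled libraries, -0.00016 without sex letter and -0.0011 with only both groups. Son was 0.0025 with no batch term, 0.0070 with the replicate block and 0.049 in batch 1 alone, and Scaf4 was 0.047 there. In batch 2 alone Rbm11 was 0.026 and Paxbp1 -0.0063. Between Dp16;D-KO/K-KO and Dp16, Scaf4 was 0.015 with the replicate block and 0.029 in batch 1, and Hspa13 was 0.015 in batch 2. Between Dp16;D-KO/K-KO and Dp16/D-KO, batch 1 alone gave 0.026 for Rbm11, -0.017 for Scaf4 and -0.017 for Paxbp1, and batch 2 alone gave -0.016 for Usp16, 0.022 for Ttc3 and 0.012 for Hspa13. With 1 library left out, Son ran from -0.035 to 0.0063, Usp16 from -0.021 to 0.035 and Cct8 from -0.0093 to 0.016 in the first comparison. Scaf4 ran from -0.062 to 0.0060 and Hspa13 from -0.046 to 0.016 in the second, and Paxbp1 from -0.0079 to 0.036 and Usp16 from -0.0036 to 0.043 in the third.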
